A study of Mus musculus with 18 samples.

Results

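Nuclear genes of oxidative phosphorylation were examined in hippocampi from WT mice and from mice lacking *Ccny*, the gene of cyclin Y (*Ccny* KO). They were chosen by symbol from the 15329 listed genes, as those beginning with *Ndufa*, *Ndufb*, *Ndufc*, *Ndufs* or *Ndufv* and a digit, the 4 *Sdh* subunit genes, and those beginning with *Uqcr*, *Cox4* to *Cox8* or *Atp5*, which gave 81 genes. By symbol, 36 belonged to complex I, 4 to complex II, 8 to complex III, 16 to complex IV and 17 to complex V. The rule reads the symbol alone. The symbols admit a few genes whose products are not structural subunits of the named complex. The *Ndufa4* protein sits in complex IV, *Cox7a2l* encodes a factor that joins complexes III and IV, and *Atp5s* and *Atp5sl* encode an ATP synthase coupling factor and a relative of it. The genes that the mitochondrial genome itself encodes were not analysed here, and *Cyc1* and *Ndufab1* fell outside the symbols.

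All mice were C57BL/6J, 8 to 10 weeks old, and 6 groups held 3 mice and 3 libraries each. Mice of either genotype stayed untrained (WT_Basal, KO_Basal), learned a first platform position in the Morris water maze, which is original learning (WT_OL, KO_OL), or then also learned a moved platform, which is reversal learning (WT_RL, KO_RL). None of the 6 groups swam without a learning task, so learning, swimming and handling cannot be told apart. By the mapping statistics of the paper, every KO_OL and KO_RL library had a higher rate of uniquely mapped reads than every KO_Basal library. Every WT_RL library likewise lay above every WT_Basal library, while WT_OL overlapped WT_Basal and had its highest rate in mouse 3. A technical difference between libraries can thus not be told apart from training, and its part in the results was not tested. The deposited values are log2(CPM + 1), where CPM is the read count of a gene scaled to library size after TMM normalization, and between 29248557 and 37915576 reads per library fell on listed genes. The 81 genes took 1.04% to 1.65% of these reads. *Ccny* itself lay between 74.0 and 95.8 CPM in the 9 KO libraries and between 107 and 158 CPM in the 9 WT libraries, without overlap, so the KO libraries still held reads of the gene. All 7 neuron markers examined (among them *Rbfox3*, *Camk2a* and *Slc17a7*) were listed in every group, with a summed level of 9360 to 11383 CPM. The choroid plexus, which lines the ventricle beside the hippocampus, was present to a varying degree by its markers. The summed level of its 7 markers (*Ttr*, *Folr1*, *Kl*, *Clic6*, *Aqp1*, *Otx2*, *Kcnj13*) ranged from 42.2 to 8393 CPM in WT_RL and from 46.5 to 665 CPM in KO_Basal.

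Oxidative phosphorylation makes most of the ATP of neurons. Complexes I and II pass electrons from NADH and succinate to ubiquinone, complex III passes them on to cytochrome c, and complex IV to oxygen, while complexes I, III and IV pump protons across the inner mitochondrial membrane and complex V, the ATP synthase, lets them flow back to drive ATP formation. In complexes I, III and IV a small catalytic core is surrounded by many accessory subunits encoded in the nucleus. Nuclear subunit genes are known for promoters that carry sites of NRF1, of ETS factors such as GABP, and of YY1, all of which were searched here.

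The promoters of 4 members that carry such letters are shown to make them visible: *Atp5k* and *Cox8a*, lower in KO_RL than in KO_Basal, *Ndufs6*, likewise lower, and *Ndufs7*, the member higher in WT_OL than in WT_Basal. They do not stand for the members that changed. Of the members lower in KO_RL with a matched promoter, 8 of 22 carried any of the letters searched, and 18 of 45 other members did. Each stretch runs 5′ to 3′ on the strand of the gene, from 250 bases before to 50 bases after a RefSeq start site (GRCm38.p6). Capitals mark the letters searched: a palindrome of 10 bases for NRF1, which is the longest run of capitals in *Atp5k*, CCGGAAG for ETS factors, which reads CTTCCGG on the other strand, and AAGATGGCG for YY1, each on either strand. *Atp5k* is on the minus strand at chr5:108434350-108434649, *Cox8a* on the minus strand at chr19:7217567-7217866, *Ndufs6* on the minus strand at chr13:73328433-73328732 and *Ndufs7* on the plus strand at chr10:80249199-80249498.
Atp5k: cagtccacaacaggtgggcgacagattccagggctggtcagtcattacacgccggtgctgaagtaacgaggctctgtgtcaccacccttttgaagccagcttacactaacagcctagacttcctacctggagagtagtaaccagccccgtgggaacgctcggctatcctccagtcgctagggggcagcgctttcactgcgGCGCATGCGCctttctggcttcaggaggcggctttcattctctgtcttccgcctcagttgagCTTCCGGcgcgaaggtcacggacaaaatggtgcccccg
Cox8a: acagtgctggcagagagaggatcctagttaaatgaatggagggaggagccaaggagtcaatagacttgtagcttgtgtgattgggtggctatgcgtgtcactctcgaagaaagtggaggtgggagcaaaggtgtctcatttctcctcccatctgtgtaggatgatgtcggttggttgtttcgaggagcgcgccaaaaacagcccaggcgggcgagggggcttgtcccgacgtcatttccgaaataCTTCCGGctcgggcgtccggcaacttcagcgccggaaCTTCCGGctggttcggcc
Ndufs6: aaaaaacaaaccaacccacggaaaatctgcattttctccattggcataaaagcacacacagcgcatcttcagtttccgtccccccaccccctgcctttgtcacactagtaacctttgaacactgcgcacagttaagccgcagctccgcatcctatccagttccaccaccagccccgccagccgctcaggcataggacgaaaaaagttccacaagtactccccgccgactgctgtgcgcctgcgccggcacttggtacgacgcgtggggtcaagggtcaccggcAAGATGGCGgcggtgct
Ndufs7: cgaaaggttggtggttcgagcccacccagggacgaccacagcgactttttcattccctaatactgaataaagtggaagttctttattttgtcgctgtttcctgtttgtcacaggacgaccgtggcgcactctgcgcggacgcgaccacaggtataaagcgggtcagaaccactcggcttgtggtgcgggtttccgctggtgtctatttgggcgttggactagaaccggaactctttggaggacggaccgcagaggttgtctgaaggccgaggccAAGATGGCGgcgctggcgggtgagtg

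A RefSeq promoter was matched for 67 of the 81 members and for 12092 listed genes. The NRF1 letters stood in a promoter of 7.46% of the matched members, against 2.07% of the matched listed genes, and the YY1 letters in 11.9% against 3.08%. The ETS letters stood in 23.9% of members and 17.5% of listed genes. Both strands were searched, the NRF1 letters read the same on both strands, and the 3 motifs do not contain each other. The NRF1 and YY1 shares of the members rest on 5 and 8 genes. Any of the motifs stood in 38.8% of the matched members and in 21.5% of the matched listed genes. Any stood in 8 of 22 members that were lower in KO_RL than in KO_Basal, and in 18 of the 45 other members. A match describes letters only, and occupancy was not measured.

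The 81 genes spanned a wide range of abundance. Per kb of transcript, the catalytic beta subunit of ATP synthase (*Atp5b*) led with a mean of 716 CPM per kb over the 18 libraries, followed by *Cox8a* (702), *Cox4i1* (621), *Cox6a1* (458) and the alpha subunit gene *Atp5a1* (391). The median was 94.5 CPM per kb for complex I, 98.0 for complex II, 158 for complex III, 201 for complex IV and 183 for complex V. Transcript lengths were those of 1 annotated transcript a gene, so these values carry the error of that choice. In CPM without the length, *Atp5b* ranged from 1205 to 1560 across the libraries, and 47 members averaged over 100 CPM.

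On average 6 members stayed below 10 CPM, and each was the minor isoform of an abundant gene. *Cox4i2*, the isoform of *Cox4i1* known from lung and for its response to oxygen, averaged 1.88 CPM per kb against 621 for *Cox4i1*. *Cox7a1*, *Cox6a2* and *Cox8b*, isoforms of heart and skeletal muscle, averaged 4.04, 5.87 and 5.53 CPM per kb, while *Cox7a2*, *Cox6a1* and *Cox8a* averaged 223, 458 and 702. *Cox6b2*, known from testis, averaged 5.10 CPM per kb against 377 for *Cox6b1*, and *Ndufa4l2*, a hypoxia-responsive relative of *Ndufa4*, averaged 2.68 against 376. In all 18 libraries each minor isoform was below its partner. The other 75 members averaged between 16.4 CPM (*Atp5s*) and 1372 CPM (*Atp5b*). For the c-ring genes, whose products are the same mature protein, *Atp5g3* averaged 237 CPM, *Atp5g1* 154 CPM and *Atp5g2* 50.01 CPM, and these are not set against each other per length because the annotated transcript of *Atp5g1* was 4715 nt long.

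**Figure D1:**
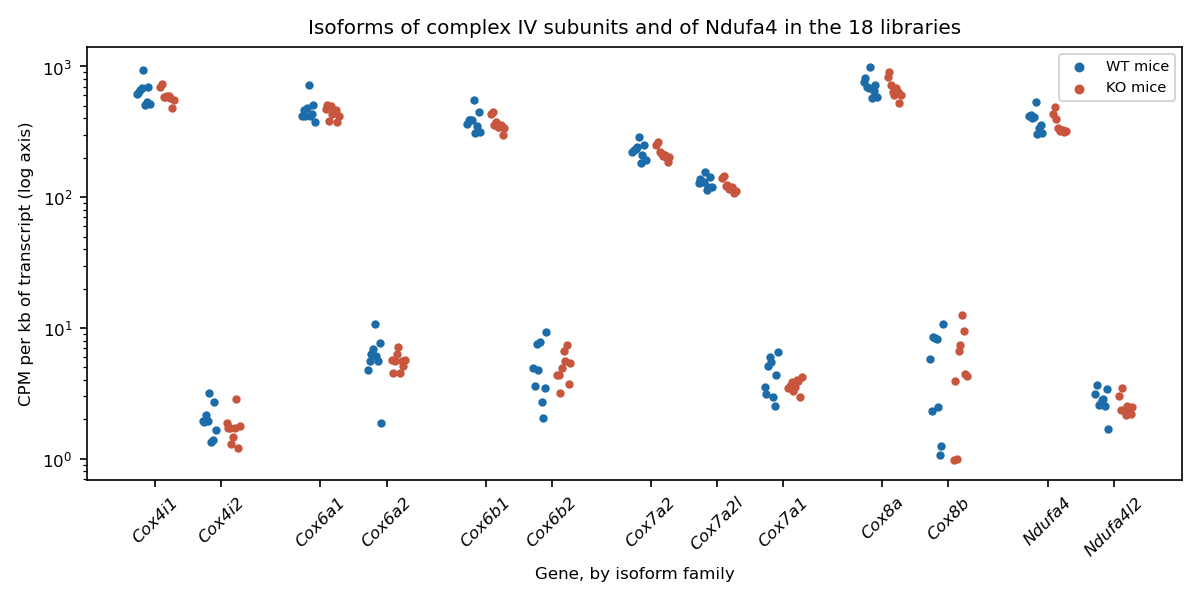
CPM per kb of annotated transcript (log axis) of the isoform families of complex IV and of *Ndufa4* in the 9 WT libraries (blue) and the 9 KO libraries (red), 1 point per library. *Cox4i2*, *Cox6a2*, *Cox6b2*, *Cox7a1*, *Cox8b* and *Ndufa4l2* lie far below their partners in every library, and *Cox8b* spreads most.

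In 4 of the 6 groups at least 67 of the 81 members were highest or lowest in the same mouse. In mouse 2 of WT_OL, 74 of the 81 members had their highest value of the 3 WT_OL mice, and in mouse 3 of WT_OL 75 had their lowest, where 41.8% and 39.1% of all genes were highest and lowest in these mice. The median member stood 0.38 above its own mean over all libraries in the first of these and 0.18 below it in the second, on the log2 scale. In WT_RL, 76 members were highest in mouse 2, where the median deviation was 0.19, and 67 were lowest in mouse 3, where it was -0.18, against 34.7% and 35.9% of all genes. In KO_Basal, 72 were highest in mouse 2 (median deviation 0.19) and 69 lowest in mouse 3 (-0.03), against 32.6% and 35.7% of all genes. In KO_RL, 72 were lowest in mouse 2 (-0.24), against 38.5% of all genes. WT_Basal and KO_OL were less one-sided, with at most 47 members sharing their lowest mouse in WT_Basal (mouse 1) and at most 55 sharing their highest in KO_OL (mouse 1). In mouse 2 of WT_OL the median deviation was 0.35 for complex I, 0.28 for II, 0.44 for III, 0.54 for IV and 0.31 for V.

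Short genes, which include the short members, had deviations of the same sign in most of these libraries. The annotated transcripts of the members had a median length of 861 nt, against 3025 nt for all genes, and 48 members were under 1000 nt. Over all 905 genes under 1000 nt, a limit chosen after their values were seen, the median deviation was 0.31 in mouse 2 of WT_OL, -0.14 in mouse 3 of WT_OL, 0.16 in mouse 2 of KO_Basal and -0.22 in mouse 2 of KO_RL, while in mouse 3 of KO_Basal it was 0.04 where that of the members was -0.03. The part of transcript length in the results on the subunit genes was not tested. In summed level the members stood at 12518 ± 340 CPM (SD, n = 3) in WT_Basal, 13231 ± 2201 in WT_OL, 12291 ± 1384 in WT_RL, 13019 ± 992 in KO_Basal, 12084 ± 367 in KO_OL and 11392 ± 619 in KO_RL. The 3 mice of WT_OL alone ran from 11199.7 to 15570.2 CPM, which covers the mean of every other group.

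**Figure D2:**
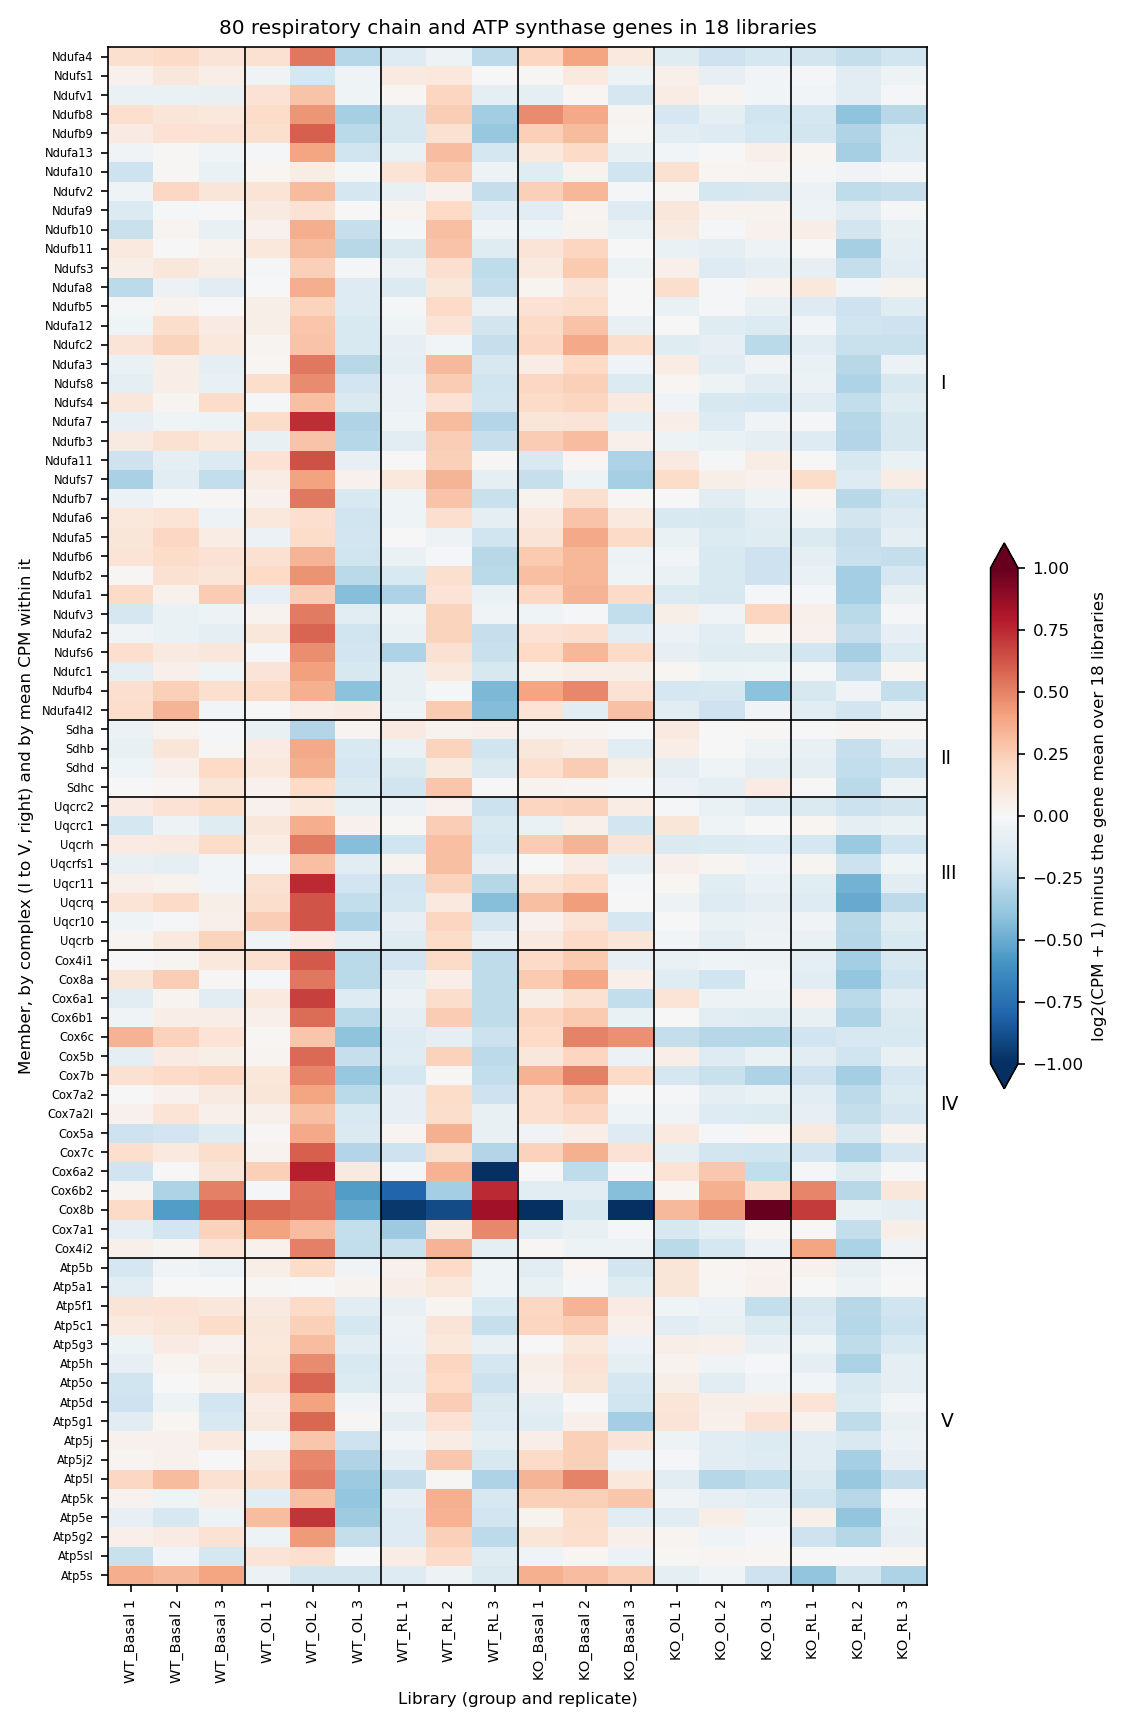
Deviation of log2(CPM + 1) from the mean of each gene over 18 libraries, for 80 of the 81 members (rows, by complex and by mean CPM) in every library (columns, 3 mice per group). Mouse 2 of WT_OL is red over nearly all complexes, mouse 2 of KO_RL is blue, and *Cox8b* and *Cox6b2* follow their own pattern.

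**Figure D3:**
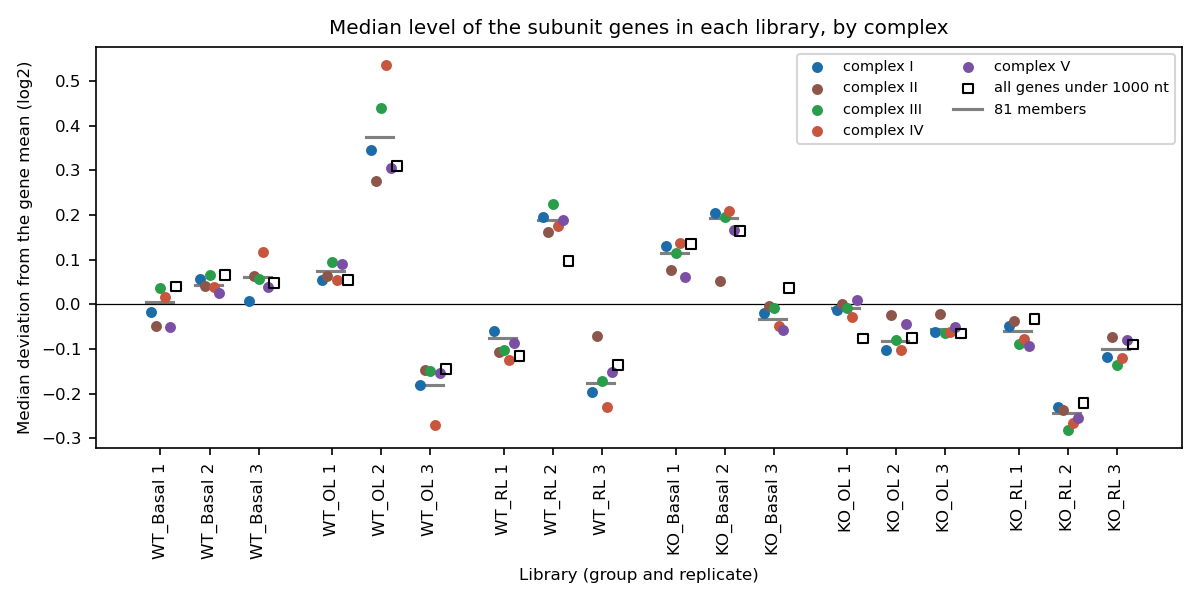
Median deviation of the members of each complex from the gene means (log2) in the 18 libraries, with the median of all 81 members (grey line) and of all 905 genes under 1000 nt (open square). Within most libraries the complexes lie close together, and the short genes range from 0.31 in mouse 2 of WT_OL to -0.22 in mouse 2 of KO_RL.

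Differences between groups were tested with limma on the log2 values of all genes, with a call at an adjusted p under 0.05 (Benjamini-Hochberg over 15329 genes, two-sided). The study trained mice to compare learning-related expression in both genotypes. After original learning in WT mice, 1 member was higher and 1 lower, where 3.88% and 5.62% of all genes were called higher and lower. The median log2 change of the members was 0.04. *Ndufs7*, a core subunit of complex I that carries its terminal iron-sulfur cluster (chr10:80249121-80256794, plus strand, GRCm38), was at 55.2, 64.0 and 58.4 CPM in WT_Basal and at 73.2, 92.1 and 71.6 CPM in WT_OL. The 2 groups did not overlap, and the log2 change was 0.40 (SE 0.12, limma adjusted p = 0.0433). This call was kept in 7 of 16 alternatives, with adjusted p between 0.00304 and 0.257. No member was called with a correction for GC content or with the 6 libraries of the comparison alone. Without mouse 3 of WT_OL 11 members were higher, where 2496 of all 15329 genes were called in either direction. Leaving out any other of these libraries left 0 higher. With transcript length corrected, 10 members were higher and 3 lower, where 2266 of all 15329 genes were called. The members' median was -0.10 without mouse 2 and 0.18 without mouse 3 of WT_OL.

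*Atp5s*, the coupling factor gene (chr12:69724950-69744660, plus strand), was the other member called, and it was lower in each of the 4 trained groups than in the untrained mice of its genotype. It was at 21.0, 20.4 and 21.5 CPM in WT_Basal, at 15.4, 14.1 and 14.1 CPM in WT_OL and at 14.7, 15.5 and 14.5 CPM in WT_RL. In KO mice it was at 20.9, 20.2 and 19.4 CPM without training, at 15.03, 15.6 and 13.8 CPM in KO_OL and at 12.04, 14.1 and 12.9 CPM in KO_RL. No trained mouse reached the lowest untrained mouse. The log2 change was -0.50 in WT_OL (limma adjusted p = 0.00113), -0.47 in WT_RL (adjusted p = 0.000988), -0.42 in KO_OL (adjusted p = 0.000994) and -0.60 in KO_RL (adjusted p = 7.87e-05), each with an SE of 0.08. The changes in OL and RL share the untrained mice of their genotype. *Atp5s* had the lowest GC content of the members (40.2%), and corrections for composition weakened the call in each comparison. With length and GC content corrected its log2 change was -0.18 in KO_RL (limma adjusted p = 0.083), -0.14 in WT_RL (limma adjusted p = 0.205) and -0.01 in KO_OL (limma adjusted p = 0.938), and with GC content alone corrected it was -0.23 in WT_OL (limma adjusted p = 0.128). The call was kept in 15 of 16 alternatives in KO_RL and in 14 of 16 in each of the other comparisons.

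After original learning in KO mice, 12 members fell and 1 rose relative to KO_Basal. That is 14.8% and 1.23% of the members, where 12.3% of all genes were lower and 11.2% higher, so the share of lower calls was close to that of all genes. The members' median log2 change was -0.15, and -0.09 without mouse 2 of KO_Basal. Of those lower, 6 were of complex I (*Ndufb4*, *Ndufc2*, *Ndufa4*, *Ndufa5*, *Ndufa6*, *Ndufs4*), 1 of complex III (*Uqcrc2*), 2 of complex IV (*Cox6c*, *Cox7b*) and 3 of complex V (*Atp5l*, *Atp5s*, *Atp5f1*), named because they were called. In 34 members the KO_OL mice lay entirely under the KO_Basal mice, which is 42.0% of members, against 24.6% of all genes. The count of lower members was 6, 3 and 15 without mouse 1, 2 or 3 of KO_Basal. Without mouse 1, 2 or 3 of KO_OL it was 9, 7 and 5. In these fits, in this order, 2228, 2491, 2929, 2313, 2910 and 2310 of all 15329 genes were called in either direction. With all libraries 1886 of all genes were lower and 1714 higher. With transcript length corrected, 9 members were lower, 12 higher and the median was 0.00. With length and GC content corrected, 11 were lower and 6 higher. Of all 15329 genes, 4149 and 2358 were called in these fits, in either direction. The 12 calls were kept in between 4 (*Ndufs4*) and 16 (*Cox6c*, *Ndufc2*) of 16 alternatives.

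*Cox6c*, a small subunit of complex IV (chr15:35925886-35938246, minus strand), was at 231, 284 and 277 CPM in KO_Basal and at 170.2, 164.7 and 164.9 CPM in KO_OL. The groups were far apart. The log2 change was -0.65 (SE 0.12, limma adjusted p = 0.00154), and it was called in all 16 alternatives. In WT mice *Cox6c* was at 256, 236 and 221 CPM in WT_Basal and at 203, 244.5 and 152 CPM in WT_OL, which overlapped. *Ndufb4*, an accessory subunit of the membrane arm of complex I (chr16:37647170-37654453, minus strand), was at 28.7, 30.6 and 24.0 CPM in KO_Basal and at 19.0, 19.2 and 16.0 CPM in KO_OL. Its log2 change was -0.59 (SE 0.16, limma adjusted p = 0.0147) with no overlap of the mice, and it was called in 13 of 16 alternatives.

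*Cox8b*, the muscle isoform of *Cox8a* (chr7:140898945-140900446, minus strand), went the other way and was the single member higher in KO_OL. It was at 0.350, 1.42 and 0.358 CPM in KO_Basal and at 2.39, 2.66 and 4.54 CPM in KO_OL. The groups did not overlap, but these levels are few reads and a like range was found within a single WT group, since WT_RL held 0.384, 0.452 and 3.85 CPM. The log2(CPM + 1) change was 1.32 (SE 0.45, limma adjusted p = 0.042), and 7 of 16 alternatives kept the call. Of the 6 libraries of the comparison left out singly, it was kept only without mouse 2 of KO_Basal. All 7 choroid plexus markers rose in the same comparison. Their summed level was 46.5 to 665 CPM in KO_Basal and 2399 to 4633 CPM in KO_OL, and their part in the *Cox8b* difference was not tested.

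**Figure D4:**
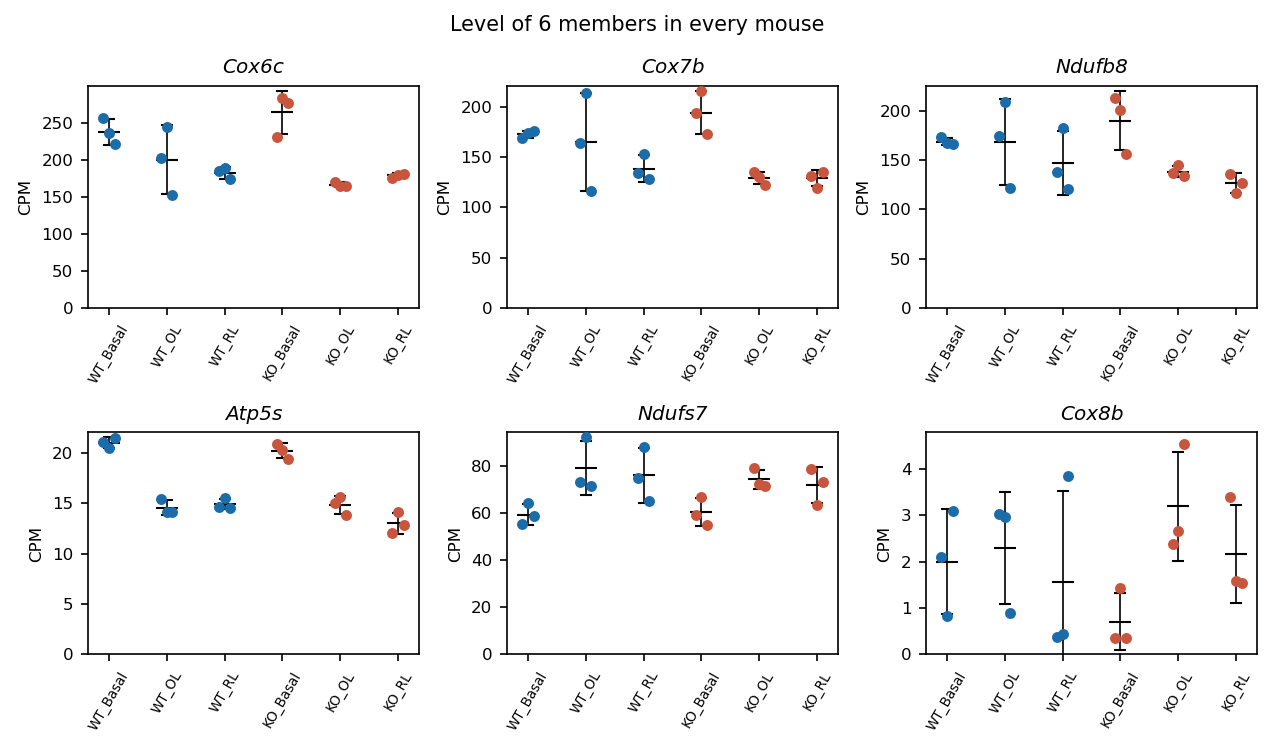
CPM of *Cox6c*, *Cox7b*, *Ndufb8*, *Atp5s*, *Ndufs7* and *Cox8b* in every mouse (points, blue for WT and red for KO), with the mean and SD of the 3 mice of a group (lines and bars). The untrained groups lie above the trained groups for *Atp5s* in both genotypes, KO_Basal lies above KO_OL and KO_RL for *Cox6c* and *Cox7b*, and *Cox8b* stays under 5 CPM everywhere.

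The comparison with the most called members was KO_RL against KO_Basal, where 26 of 81 members (32.1%) fell and 0 rose, against 12% of all genes lower and 11.6% higher. By voom on the recovered reads the counts were also 26 and 0, and at an unadjusted p under 0.05 they were 35 and 0. The median log2 change was -0.25 for the members, and 63 members had a negative change. In 41 members (50.6%) every KO_RL mouse was below every KO_Basal mouse, against 22.6% of all genes. The count changed when single libraries were left out. It was 6 without mouse 2, 9 without mouse 1 and 26 without mouse 3 of KO_Basal. Without mouse 1, 2 or 3 of KO_RL it was 17, 8 and 12. In these fits, in this order, 2338, 2091, 3224, 2649, 2786 and 2326 of all 15329 genes were called in either direction. With all libraries 1836 of all genes were lower and 1776 higher. With transcript length corrected, 15 members were lower, 6 were higher and the median was -0.05. With length and GC content corrected, 11 were lower, 4 higher and the median was -0.08. With GC content alone corrected, 21 were lower, 0 higher and the median was -0.26. Of all 15329 genes, 3751, 1978 and 2678 were called in these fits, in this order and in either direction. All 12 members that were lower in KO_OL were among the 26, and both comparisons share the KO_Basal mice. The 26 calls were kept in between 6 (*Cox7c*) and 16 of 16 alternatives.

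Complex I gave 12 of the 26, with a median log2 change of -0.25 over its 36 genes. The 11 genes outside its core, of which *Ndufa4* belongs to complex IV by its protein, were *Ndufb8* (-0.58), *Ndufb4* (-0.48), *Ndufs6* (-0.46), *Ndufc2* (-0.44), *Ndufa4* (-0.44), *Ndufb3* (-0.40), *Ndufa5* (-0.39), *Ndufb6* (-0.37), *Ndufs4* (-0.33), *Ndufa6* (-0.28) and *Ndufb5* (-0.26). *Ndufb8*, a membrane arm subunit (chr19:44548572-44555440, minus strand), was at 213, 200.5 and 156 CPM in KO_Basal and at 136, 116 and 127 CPM in KO_RL. Its mice did not overlap (SE 0.17, limma adjusted p = 0.0211), and 12 of 16 alternatives kept the call. Its exons overlap those of *Gm20538* on the same strand, so reads there could belong to either. Of the 7 core subunit genes of complex I, *Ndufv2*, whose product holds an iron-sulfur cluster beside the NADH site, was lower. It was at 158, 168 and 133 CPM in KO_Basal and at 129, 112 and 114 CPM in KO_RL (log2 change -0.37, SE 0.12, limma adjusted p = 0.0357). This call was kept in 10 of 16 alternatives, and that of *Ndufa4* in 8, and with length and GC content corrected the changes were -0.04 and -0.05.

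In complex II, *Sdhd*, a membrane anchor (chr9:50596357-50603812, minus strand), was the 1 gene of 4 that fell. It was at 123, 131 and 114 CPM in KO_Basal and at 102, 92.2 and 94.3 CPM in KO_RL, without overlap (log2 change -0.35, SE 0.11, limma adjusted p = 0.0296), and 11 of 16 alternatives kept the call. In complex III 4 of 8 genes fell and the median change was -0.32. *Uqcrc2*, a core protein of the matrix side (chr7:120635176-120659524, plus strand), was at 325, 329 and 296 CPM in KO_Basal and at 253, 242 and 247 CPM in KO_RL (log2 change -0.36, SE 0.07, limma adjusted p = 0.00306). The mice were well apart, and 14 of 16 alternatives kept this call. The small subunits *Uqcrq* (-0.54), *Uqcrh* (-0.49) and *Uqcrb* (-0.30) fell with it. With length and GC content corrected, *Uqcrb* alone of the 26 turned sign, to 0.18, with limma adjusted p = 0.124.

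Complex IV gave 4 of its 16 genes. *Cox7b*, an X-linked small subunit (chrX:106015700-106022450, plus strand), was at 193, 215 and 173 CPM in KO_Basal and at 132, 119.6 and 135 CPM in KO_RL. Its log2 change of -0.58 (SE 0.15, limma adjusted p = 0.0104) was kept in 13 of 16 alternatives, and it was also lower in KO_OL, with 135, 129.7 and 122 CPM. *Cox6c* (-0.55), *Cox8a* (-0.47) and *Cox7c* (-0.47) fell too. *Cox4i1*, an abundant subunit of complex IV, had a log2 change of -0.32 (SE 0.17, limma adjusted p = 0.175) and was called in 1 of 16 alternatives. Complex V gave 5 of 17. *Atp5s* was described above, *Atp5l* (-0.56) and *Atp5k* (-0.42) encode small membrane subunits, *Atp5f1* (-0.42) the main subunit of the peripheral stalk, and *Atp5c1* (-0.39) the central stalk. *Atp5c1* was at 292, 299 and 259.6 CPM in KO_Basal and at 228, 205 and 216 CPM in KO_RL. *Atp5f1* and *Ndufc2* were the 2 members lower in KO_RL in all 16 alternatives. Exons of *Gm42890* and *Wdr77* overlap those of *Atp5f1* on the other strand, and whether reads were counted by strand is not given in the sources used here.

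The alpha and beta subunit genes of the catalytic head of ATP synthase were not called. *Atp5b* was at 1267, 1387 and 1205 CPM in KO_Basal and at 1409.8, 1298 and 1353 CPM in KO_RL, which overlapped, and its log2 change was 0.07 (SE 0.09, limma adjusted p = 0.585). *Atp5a1* had a log2 change of 0.06 (SE 0.07, limma adjusted p = 0.606). A set of 21 members held the core genes of complex I, all of complex II, *Uqcrc1*, *Uqcrc2* and *Uqcrfs1*, the nuclear subunits *Cox4i1*, *Cox5a* and *Cox5b* that adjoin the mitochondrially encoded core of complex IV, and *Atp5a1*, *Atp5b*, *Atp5c1* and *Atp5o*. Of these, 4 were lower (*Ndufv2*, *Sdhd*, *Uqcrc2*, *Atp5c1*) and the other 17 ranged from -0.32 (*Cox4i1*) to 0.25 (*Ndufs7*). For 9 of these 17 the sign turned under at least 1 alternative. Of the 60 other members 22 were lower. The median change was -0.12 for this set and -0.27 for the others, and the difference between these sets was not tested.

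Base composition of the members that fell is given as a description. Median GC content of the transcript was 48.2% in the 26 members lower in KO_RL and 53.7% in the other 55, while the median length was 750.5 nt and 865 nt. Among genes that are no members and are under 1000 nt, 23.8% of 857 were lower in KO_RL, and 33.3% of the 48 members of that length were. Among genes of 1000 nt or more, 11.1% of 14287 others and 30.3% of 33 members were lower. In KO_OL these shares were 18.8% and 14.6% under 1000 nt, and 11.8% and 15.2% at 1000 nt or more. These are descriptions of shares, since the length limit followed the values.

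**Figure D5:**
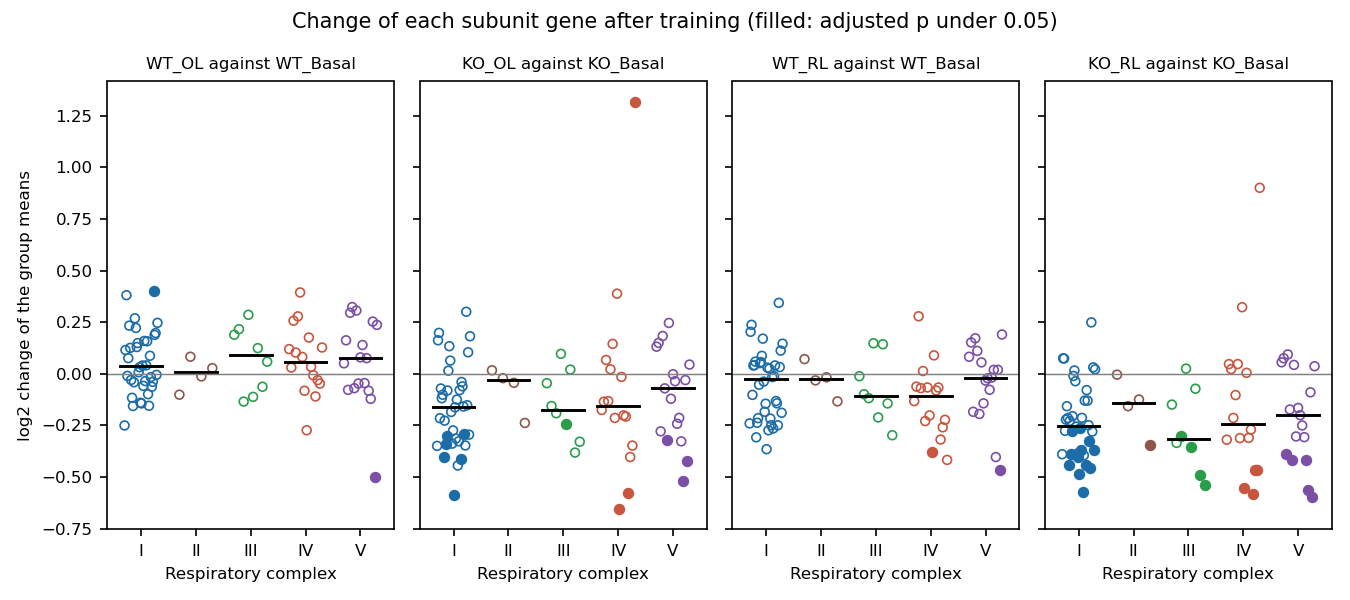
Log2 change of each member against untrained mice of the same genotype, by complex, for original learning and for original and reversal learning in WT and KO mice (n = 3 mice a group). Filled points passed limma's adjusted p under 0.05, and black lines are medians. In KO_RL filled points lie below 0 in all 5 complexes, while WT_OL and WT_RL hold 2 filled points each.

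In WT mice after original and reversal learning, few members were called. Against WT_Basal, 0 were higher and 2 lower, where 8.28% of all genes were higher and 7.42% lower, with voom calling 0 and 1 and 4 and 11 members passing an unadjusted p under 0.05. The median log2 change was -0.06. Besides *Atp5s*, *Cox6c* was lower, at 256, 236 and 221 CPM in WT_Basal and at 184, 188 and 173 CPM in WT_RL. The groups did not overlap (log2 change -0.38, SE 0.12, limma adjusted p = 0.0467), but 6 of 16 alternatives kept the call. Leaving out any library but mouse 2 of WT_RL left 1 member lower. Without mouse 3 of WT_RL 3 members were higher, where 2323 of all 15329 genes were called. With transcript length corrected, 8 members were higher, 4 lower and the median was 0.03, where 3135 of all 15329 genes were called. *Cox7b* was at 168, 174 and 175 CPM in WT_Basal and at 134, 153 and 128 CPM in WT_RL, with a log2 change of -0.32 and limma adjusted p = 0.162.

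Reversal learning beyond original learning gave no called member in either genotype by limma or by voom. In WT_RL against WT_OL, 3 members passed an unadjusted p under 0.05, 2 of them higher, and 0.104% and 0.157% of all genes were called higher and lower. Without mouse 3 of WT_OL, whose members were low, 1 member was higher and 13 were lower, where 2042 of all 15329 genes were called. In KO_RL against KO_OL, 1 member passed the unadjusted threshold, and 0.0196% and 0% of all genes were called higher and lower. The median log2 change of the members was -0.11 in WT mice, but 0.02 without mouse 2 and -0.27 without mouse 3 of WT_OL, -0.22 without mouse 2 and -0.04 without mouse 3 of WT_RL, and -0.02 with transcript length corrected. In KO mice it was -0.09, and -0.04 without mouse 2 of KO_RL, -0.06 without mouse 1 of KO_OL and -0.05 with length corrected.

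Genotype alone gave no called member by limma or voom. KO_Basal and WT_Basal differed by a median of 0.07 with 64 of 81 members higher in KO, 0 members passed an unadjusted p under 0.05, and 0.013% and 0.00652% of all genes were called higher and lower. The median was 0.02 without mouse 2 and 0.12 without mouse 3 of KO_Basal, and 0.02 with transcript length corrected. After original learning the median was -0.15 and 74 of 81 members were lower in KO_OL than in WT_OL, with 2 at an unadjusted p under 0.05 and 0.0261% and 0.0391% of all genes called. This direction rested on 2 mice of WT_OL. Without mouse 2 the median was 0.00. Without mouse 3 the median was -0.28, with 20 members lower and 1 higher, where 2536 of all 15329 genes were called. With length corrected it was -0.04. KO_RL and WT_RL differed by a median of -0.11, with 75 of 81 members lower in KO, 2 at an unadjusted p under 0.05, and 0% of all genes called in each direction. The median was -0.01 without mouse 2 and -0.19 without mouse 3 of WT_RL, -0.06 without mouse 2 of KO_RL, and -0.07 with length corrected. Most members deviate together in a library, so these signs are not 81 separate observations.

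The fall in KO mice was not shown to differ from the change in WT mice. For the genotype difference in the change with original learning, limma called 0 members and 0% of all genes, 3 members (*Ndufc2*, *Cox7b* and *Cox6c*, all with a more negative change in KO) passed an unadjusted p under 0.05, and voom called 0. The smallest p was that of *Ndufc2*, at -0.31 (SE 0.14, limma adjusted p = 0.391). Without mouse 3 of WT_OL 5 members were called, where 907 of all 15329 genes were called. For the change with original and reversal learning, 0 members and 0% of all genes were called, 2 passed the unadjusted threshold, and voom called 0. The medians of these differences were -0.20 and -0.17, with 73 and 76 of 81 members negative. With transcript length corrected they were -0.04 and -0.06. Without mouse 2 of WT_OL the first was -0.08 and without mouse 3 it was -0.34, and without mouse 2 of WT_RL the second was -0.08. The 2 contrasts share the untrained mice.

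The genes that work beside the subunits were read against the shares of all genes called in the same comparisons, which were 12% lower and 11.6% higher in KO_RL, 12.3% and 11.2% in KO_OL, 7.42% and 8.28% in WT_RL, and 5.62% and 3.88% in WT_OL. For these genes, and for those of the lists below, the changes come from the main fit alone. No alternative was examined for them, and the OL and RL comparisons of a genotype share its untrained mice. Of 43 listed assembly factors, 11 fell and 0 rose in KO_RL against KO_Basal, and 6 fell in KO_OL, 5 in WT_OL and 6 in WT_RL. *Sdhaf3*, which helps to mature complex II, fell by 0.72 in KO_RL (SE 0.09, limma adjusted p = 7.5e-05), by 0.56 in KO_OL and by 0.35 and 0.36 in WT_OL and WT_RL. *Ndufaf4*, an assembly factor of complex I, fell in all 4 comparisons, from 0.24 in WT_RL to 0.47 in KO_OL. *Cox11*, which inserts copper into complex IV, also fell in all 4, by 0.33 to 0.44. Of 8 partners of the chain, *Cycs*, the gene of cytochrome c, fell by 0.32 in KO_RL, and *Usmg5*, a small protein bound to ATP synthase, fell by 0.82. In WT_RL *Usmg5* fell by 0.60.

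The tricarboxylic acid cycle, which feeds the chain with NADH and succinate, went both ways. Of 13 genes 3 rose and 3 fell in KO_OL, 1 rose and 3 fell in KO_RL, 2 rose and 1 fell in WT_RL, and 1 rose and 2 fell in WT_OL. *Ogdh*, a subunit of the 2-oxoglutarate dehydrogenase complex, rose in all 4, by 0.28 in WT_OL to 0.55 in KO_OL, and its partner *Dld* fell in all 4, by 0.33 to 0.46. Of 15 listed genes of glycolysis, 7 rose in KO_OL, 3 in KO_RL, 4 in WT_RL and 0 in WT_OL, and 0 fell in any of these. *Pfkl*, a phosphofructokinase, rose by 0.51 in KO_OL, 0.44 in KO_RL and 0.35 in WT_RL.

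Of 11 regulators of mitochondrial biogenesis, *Ppargc1b*, a coactivator of subunit genes, rose in all 4 comparisons, by 0.48 in WT_RL to 0.82 in KO_RL. *Yy1* fell in all 4, by 0.30 to 0.43, and *Tfam*, which packages and transcribes mitochondrial DNA, fell by 0.16 in KO_RL and by 0.22 in WT_OL. In KO_OL 2 of the 11 rose and 2 fell, in KO_RL 3 rose and 3 fell, in WT_RL 3 rose and 2 fell, and in WT_OL 1 rose and 3 fell. In bulk tissue, fewer cells of a type and less RNA per cell cannot be told apart. The summed level of the 6 astrocyte markers was 4338 to 4489 CPM in KO_Basal and 5322 to 5509 CPM in KO_RL, with 1 marker called higher and 1 lower. That of the 7 choroid plexus markers was 46.5 to 665 CPM in KO_Basal and 1328 to 5008 CPM in KO_RL, with 6 called higher. Of the microglial markers, 3 of 5 fell in KO_RL, led by *P2ry12* (-0.92), and 0 of 5 oligodendrocyte markers were called. The summed level of the 5 microglial markers was 253 to 271 CPM in KO_Basal and 219 to 261 CPM in KO_RL, which overlapped. The part of cell composition in the fall of the subunit genes was not tested.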

How the data were processed

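Poly(A) RNA of the hippocampus was sequenced as 100-bp paired ends on an Illumina HiSeq instrument. Per the methods and labels, the authors aligned reads to mm10 with STAR 2.5.1 and normalized gene counts by TMM with edgeR 3.12.1 (R 3.3.0), and they deposited log2 CPM values, which are log2(CPM + 1) by their steps, where the methods speak of a floor at 1. All values gave whole reads (100% within 0.05 reads), from 29248557 to 37915576 per library. The number of reads limits the precision of low genes, and with 3 mice a group the p-values rest on the spread between these mice. Strand use in counting is not given in the sources used here, so members that share exon positions or near-identical copies with other genes are uncertain.

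One mean per group was fitted to the 18 libraries with limma 3.58.1 (R 4.3.3, trended variance, 12 residual degrees of freedom), followed by Benjamini-Hochberg adjustment over 15329 genes. Exact permutation tests of single members can give at best p = 0.1 with 3 mice against 3. Plots were drawn with matplotlib 3.10.9, and tables were made in Python 3.11.15 with pandas 2.3.3 on numpy 2.4.6. Positions, lengths and GC content came from GENCODE transcripts on GRCm38, promoters from RefSeq. Replicate numbers were not used to pair samples in the main fit, and whether they carry a shared effect is not settled.

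Members and lists were chosen with earlier results of these data known. Named were core and catalytic members, isoform pairs, the 3 largest rises and falls among called members of each comparison, the highest and lowest members, and called members against the majority. All others were named after their values were seen. The values of 1 member are counted but not reported here. Alternatives were a floor at 1, a pseudocount of 0.25, a filter, median centring, voom on recovered reads, corrections for length and GC content (both together chosen after seeing the data), a replicate block, the libraries of a comparison alone, and leaving out each library.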

Additional observations from a re-analysis of the deposited data

How the results depend on the processing

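Results depended most on single libraries and on transcript length and GC content, and the cause was not tested. Of the recomputed counts, 272 stayed within 1.5 times and 60 did not. Most of the 272 were counts of 0 that stayed 0, so these totals do not measure how stable the counts above 0 were. Leaving out single libraries gave 0 to 11 members higher and 1 to 2 lower for WT_OL, 0 to 1 higher and 3 to 15 lower for KO_OL, 0 to 3 higher and 1 to 2 lower for WT_RL, and 6 to 26 lower for KO_RL, each against untrained mice. It gave 0 to 1 higher and 0 to 13 lower for WT_RL against WT_OL. For KO_OL against WT_OL it gave 0 to 1 higher and 0 to 20 lower. For the genotype difference with original learning it gave 0 to 5. The upper values came without mouse 3 of WT_OL, where 2042, 2536 and 907 of 15329 genes were called, in this order. With 1 library left out, 2228 to 2929 of all genes were called for KO_OL and 2091 to 3224 for KO_RL, each against KO_Basal.

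The length correction gave 10 higher and 3 lower (WT_OL), and 12 higher and 9 lower (KO_OL). It also gave 8 higher and 4 lower (WT_RL), and 6 higher and 15 lower (KO_RL). Length and GC content together gave 2 higher and 1 lower (WT_OL), and 6 higher and 11 lower (KO_OL). They also gave 3 higher and 2 lower (WT_RL), and 4 higher and 11 lower (KO_RL). The GC correction gave 0 higher and 0 lower (WT_OL and WT_RL), 0 higher and 11 lower (KO_OL), and 0 higher and 21 lower (KO_RL). The libraries of a comparison alone gave 0 higher and 0 lower (WT_OL), and 3 higher and 30 lower (KO_OL). They also gave 0 higher and 5 lower (WT_RL), and 1 higher and 37 lower (KO_RL). Of all 15329 genes, 5289 (KO_OL) and 4426 (KO_RL) were called there. A floor at 1 gave 0 higher and 10 lower in KO_OL, and median centring gave 0 higher and 11 lower there. Voom gave 0 higher and 1 lower in WT_RL.

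Correlations of same-numbered deviations ran from -0.60 (number 1 of KO_RL and WT_RL) to 0.51 (number 2 of WT_RL and WT_OL). In WT_OL, WT_RL and KO_Basal most members were highest in mouse 2 and lowest in mouse 3, while in KO_RL most were lowest in mouse 2. Whether libraries with the same number share an effect is not settled by these values. With a replicate block, KO_OL had 0 higher and 15 lower, WT_RL 1 higher and 4 lower, and KO_RL 29 lower. Of the recomputed changes of called members and of 4 others (*Atp5a1*, *Atp5b*, *Cox4i1* and *Ndufs7* in KO_RL), 540 kept their side of the threshold, 208 lost the call, 3 gained it and 1 turned sign, that of *Uqcrb* in KO_RL to 0.18 with length and GC content corrected. Uncalled core members, of which 9 of 17 turned sign under an alternative, are counted apart.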
